A study of Mus musculus with 4 samples.

Results

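The genes described here are 10 that take up arginine, make or split it, or turn its product ornithine into polyamines and break those down again. They are Slc7a2, Ass1, Arg1, Arg2, Odc1, Oaz1, Srm, Sms, Sat1 and Smox, chosen by gene symbol for their place in the pathway. All 10 were among the 24784 genes of the deposited table. Levels were measured by sequencing of polyadenylated RNA from macrophages sorted out of the liver tumours of male mice, 6 to 8 weeks of age. The mice of both groups had received Hepa 1-6, a hepatoma line of mouse. The control genotype gave 2 libraries and the genotype OXCT1mKO 2, whose label names Oxct1, an enzyme of ketone body use, as the target. The labels name neither the promoter that drives the deletion, nor the strain, nor how many animals gave a library. The p-values therefore measure only the spread between these libraries, which may be technical.

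Arginase hydrolyses arginine to urea and ornithine. Arg1 encodes the cytosolic form, abundant in hepatocytes and used as a marker of alternatively activated and tumour-associated macrophages, and Arg2 the mitochondrial form. Ornithine decarboxylase, the product of Odc1, makes putrescine from ornithine. Spermidine synthase (Srm) and spermine synthase (Sms) extend it with groups taken from decarboxylated S-adenosylmethionine. Antizyme (Oaz1), itself induced by polyamines through a ribosomal frameshift, binds ornithine decarboxylase and sends it to the proteasome. Spermidine/spermine acetyltransferase (Sat1) and spermine oxidase (Smox) run the pathway backwards.

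Of the 10 genes, Ass1 rose in OXCT1mKO, Srm, Sms and Oaz1 fell, and the other 6, both arginases included, did not pass the test. Ass1 rose to 185% of its control mean, while Srm fell to 56.2%, Sms to 65.4% and Oaz1 to 67.7%. The test was limma on log2(RPKM + 1), where RPKM is a read count divided by gene length and library size. Benjamini-Hochberg adjustment ran over the 12523 genes with a mean of at least 1 RPKM, a filter that all 10 passed, and the threshold was 0.05. Over all genes tested 32.8% passed, 16.4% upward and 16.4% downward, so 4 of 10 is near the background. The median log2 fold change was -0.30 over the 10 genes and 0.00 over all genes tested. Leaving out OXCT1mKO 1 or OXCT1mKO 2 left 0 of the 10 called by limma, with 1 and 10 genes called in the whole table. Such a fit has to assume the spread of the controls for the single OXCT1mKO library left.

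**Figure D1:**
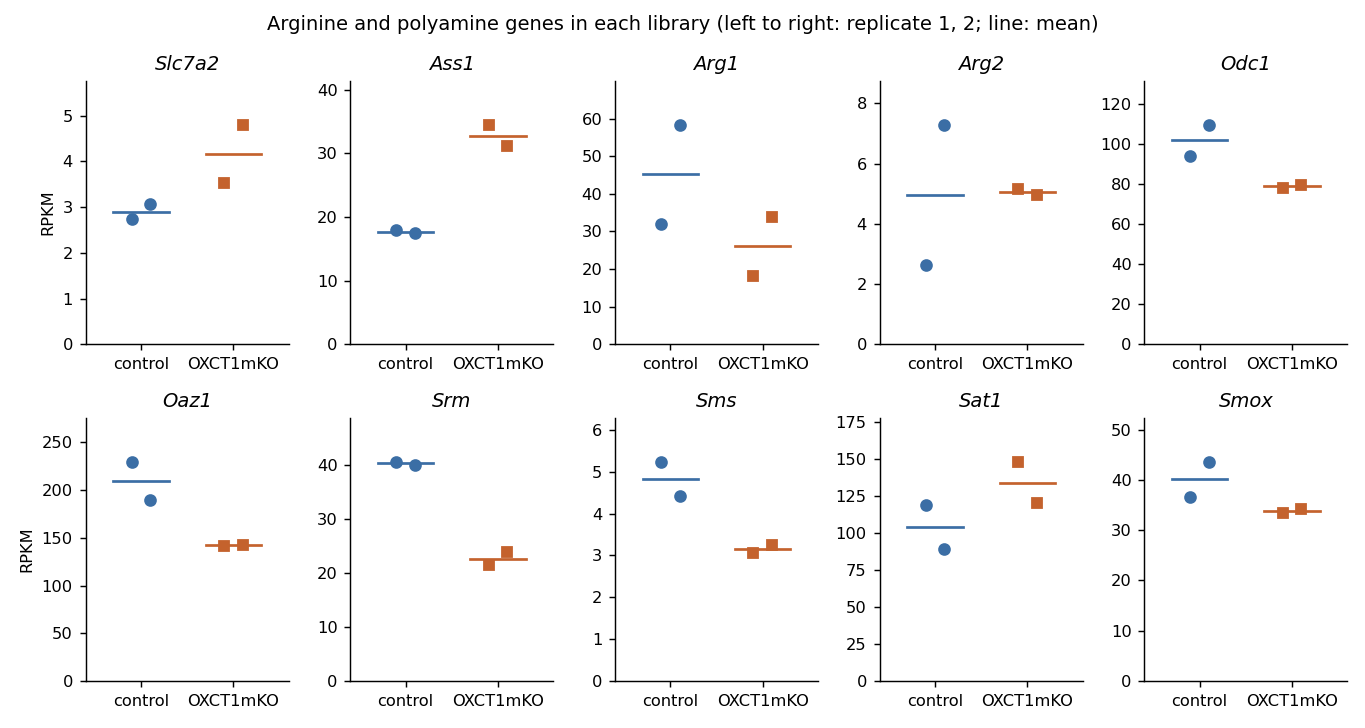
RPKM (linear axes starting at 0) of the 10 genes in each library, with circles for the 2 controls, squares for the 2 OXCT1mKO libraries and a line at each group mean. In Srm the controls lie at 40.6 and 40.0 and the OXCT1mKO libraries at 21.4 and 23.9, whereas the groups overlap in Arg1 and Arg2.

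The RPKM values of a library summed to between 325034 and 377575, with the 2 lowest sums in OXCT1mKO. Oxct1 itself was at 19.3 and 20.3 RPKM in the controls against 14.7 and 15.4 RPKM in OXCT1mKO. All 10 macrophage markers were above 0 in every library, their sums being 1474 to 2132 RPKM in control and 1420 to 1538 RPKM in OXCT1mKO. Of these 10, Csf1r, Mertk, Adgre1 and Cd68 rose by limma, by 0.81 to 1.71 on the log2 scale, and Lyz2 fell from 688 and 744 RPKM to 8.76 and 6.52 RPKM. Without Lyz2, left out after its values were seen, the sums of the other 9 were 730.1 to 1444 RPKM in control and 1412 to 1531 RPKM in OXCT1mKO. Markers of other cells were present too, and none of the markers listed for any cell type was at 0 in all of them. For the counts of markers called in this paragraph, 16.4% of all genes tested rose and 16.4% fell. The summed level of 7 T cell markers was 131 to 211 RPKM in control and 42.8 to 75.5 RPKM in OXCT1mKO, with 4 of 7 lower by limma (Cd3d, Cd3g, Lat and Thy1). For 7 epithelial and pancreatic markers the sums were 649 to 985 and 507 to 571 RPKM, with the 3 pancreatic enzyme genes Ctrb1, Cela2a and Amy2a5 lower. The sums of 8 Kupffer cell markers were 49.7 to 54.4 and 269 to 430 RPKM (7 of 8 higher), and those of 7 endothelial markers 274 to 365 and 598 to 662 RPKM (5 of 7 higher). The sums of 6 monocyte markers were 251 to 372 and 533 to 562 RPKM (4 of 6 higher, Ly6c2, Ccr2, F13a1 and Plac8), and the globin gene Hba-a1 was at 7794 RPKM in control 1 and at 94.0 to 265 RPKM elsewhere. Ptprc, the leukocyte antigen CD45, was at 27.7 and 28.0 RPKM in control and 62.0 and 62.4 RPKM in OXCT1mKO. The part of these cells in the results below was not tested, and in bulk libraries fewer cells of a type and less RNA per cell cannot be told apart.

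The promoters of 3 of the 4 genes that passed are shown because 2 of the 3 hold the E-box CACGTG, the sequence bound by Myc and Max, and moved in opposite directions. Each window runs from 250 bases before to 50 after a RefSeq start site in build GRCm38.p6, 5′ to 3′ on the gene's strand, with the E-box in capitals. Windows were given for 6 of the 10 genes, and for Arg1, Arg2, Srm and Slc7a2 there was no entry.
Ass1, chr2:31470020-31470319, plus strand: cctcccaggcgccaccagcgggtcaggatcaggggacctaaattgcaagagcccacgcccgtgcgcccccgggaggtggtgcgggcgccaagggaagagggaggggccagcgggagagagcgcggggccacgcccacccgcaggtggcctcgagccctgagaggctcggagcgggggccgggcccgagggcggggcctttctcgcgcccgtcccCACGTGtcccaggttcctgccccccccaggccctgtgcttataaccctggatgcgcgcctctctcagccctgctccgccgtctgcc
Sms, chrX:157492238-157492537, minus strand: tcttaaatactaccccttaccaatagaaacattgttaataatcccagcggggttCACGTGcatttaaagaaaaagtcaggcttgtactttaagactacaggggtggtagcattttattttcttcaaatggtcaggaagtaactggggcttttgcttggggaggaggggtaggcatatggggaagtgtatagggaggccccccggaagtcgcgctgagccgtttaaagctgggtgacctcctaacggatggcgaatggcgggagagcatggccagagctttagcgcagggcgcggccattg
Oaz1, chr10:80826406-80826705, plus strand: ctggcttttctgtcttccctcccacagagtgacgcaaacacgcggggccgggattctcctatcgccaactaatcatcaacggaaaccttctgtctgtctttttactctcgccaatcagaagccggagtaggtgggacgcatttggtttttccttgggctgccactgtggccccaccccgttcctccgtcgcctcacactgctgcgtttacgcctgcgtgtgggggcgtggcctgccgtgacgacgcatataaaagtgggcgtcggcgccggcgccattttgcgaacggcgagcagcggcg
The E-box begins 36 bases before the start site in Ass1 and 196 bases before it in this window of Sms. The other Sms window, whose start site lies downstream, holds none, nor do those of Odc1, Sat1, Smox and Oaz1. Thus 2 of the 7 windows of these genes hold CACGTG, against 7.15% of all 32851 windows. These 7 windows come from 6 genes, 2 of them from Sms. With so few windows the share is a description only, and enrichment was not tested. The STAT6 motif, TTC and GAA spaced by 4 bases, is in 0 of the 7 and in 6.95% of all windows. Both motifs read the same on both strands and were searched at any overlap, and a match in these letters is not evidence of binding. Sequence outside the windows was not searched, so the absence of a motif holds for these windows only.

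Uptake of arginine by Slc7a2, the cationic amino acid transporter CAT2, was considered first. The gene lies on chromosome 8 of GRCm38, from 40862396 to 40922308 on the plus strand. It was at 2.74 and 3.06 RPKM in the controls against 3.52 and 4.80 RPKM in OXCT1mKO. Both OXCT1mKO libraries were higher, OXCT1mKO 2 by more. At a log2 fold change of 0.39 ± 0.16 (SE) it missed the threshold (limma adjusted p 0.118).

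Ass1 encodes argininosuccinate synthase, which joins citrulline and aspartate on the way back to arginine. It lies on chromosome 2, from 31470207 to 31520672 on the plus strand. The libraries gave 17.9 and 17.5 RPKM in the controls against 34.5 and 31.1 RPKM in OXCT1mKO. The groups were far apart and each was tight, with means of 17.7 ± 0.29 and 32.8 ± 2.39 RPKM (SD, n = 2). On the log2 scale the rise was 0.85 ± 0.09 (limma adjusted p 0.0127). It was 0.78 to 0.92 without each library in turn, with an adjusted p of 0.105 without OXCT1mKO 1 and 0.0718 without OXCT1mKO 2.

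Argininosuccinate lyase (Asl), which acts next and releases arginine, did not move with it. It was at 13.7 and 12.6 RPKM in control and 14.9 and 11.6 RPKM in OXCT1mKO, a log2 fold change of 0.00 ± 0.14. The hepatocyte enzymes of the urea cycle, Cps1 and Otc, both rose from low levels. Cps1, which makes carbamoyl phosphate, went from 0.505 and 0.502 RPKM to 4.62 and 1.74 RPKM (log2 fold change 1.38, limma adjusted p 0.0422). Otc, which makes citrulline, went from 0.713 and 0.417 RPKM to 3.21 and 1.82 RPKM (1.14, limma adjusted p 0.0284). Without OXCT1mKO 1 the value for Cps1 was 0.87 (limma adjusted p 0.117). Without control 1 and without control 2 it was 1.39 and 1.38, with adjusted p of 0.106 and 0.0961. The call of Otc was lost without control 2 as well (1.01, limma adjusted p 0.0682). Among 14 hepatocyte markers, Cps1 and Otc being 2 of them, 3 rose (Cps1, Otc and Cyp3a11) and Hnf4a fell. Over all genes tested 16.4% rose and 16.4% fell. The sums of that list, 468 to 561 RPKM in control and 454 to 741 RPKM in OXCT1mKO, overlapped. Alb was the largest part of the control sums, at 418 and 372 RPKM, and stood at 360 and 277 RPKM in OXCT1mKO. With Alb left out, a choice made after its values were seen, the sums of the other 13 markers did not overlap. These 13, Cps1 and Otc among them, summed to 96.0 to 142 RPKM in control and 177 to 380 RPKM in OXCT1mKO. Among single genes tested the groups were apart in 74.7%, and no such share was computed for sums. The log2 fold change was above 0 in 12 of the 14, Cps1 and Otc again among them, with a median of 1.08. Over all genes tested it was above 0 in 6296 of 12523, with a median of 0.00. The fitted log2 fold change of Arg1, described next, was -0.78 and missed the threshold. The part of hepatocyte RNA in the values of Ass1, Arg1, Cps1 and Otc was not tested.

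Arg1 lies on chromosome 10, from 24915221 to 24927484 on the minus strand. It was measured at 32.0 and 58.3 RPKM in the controls against 18.1 and 33.9 RPKM in OXCT1mKO. The groups overlapped, since control 1 was below OXCT1mKO 2, and within each group the libraries differed by 1.82 and 1.87 times. The fitted log2 fold change was -0.78, with a 95% confidence interval from -1.81 to 0.26, and missed the threshold (limma adjusted p 0.185). That interval holds no difference as well as a fall larger than that of Srm. Leaving out 1 library moved the value between -1.21 (without OXCT1mKO 2) and -0.34 (without OXCT1mKO 1), with -1.20 without control 1 and -0.36 without control 2. None of these passed, the adjusted p lying between 0.0957 and 0.587.

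Arg2 lies on chromosome 12, from 79130777 to 79156301 on the plus strand, and was lower than Arg1 in every library. It was at 2.63 and 7.29 RPKM in the controls against 5.16 and 4.97 RPKM in OXCT1mKO. The OXCT1mKO libraries lay between the controls. Its log2 fold change of 0.14 had an interval of -0.88 to 1.17 (limma adjusted p 0.793). It was 0.74 without control 2 (limma adjusted p 0.0221) and -0.45 without control 1 (0.052), so its direction rested on which control was used. Its exons overlap those of Vti1b on the opposite strand, which was at 28.8 to 33.8 RPKM. With the strand setting of the counts not given, part of the Arg2 reads could belong to Vti1b.

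Neutrophils and hepatocytes also express arginases. The sum of 9 neutrophil markers was 167 RPKM in control 1 and 1300.2 RPKM in control 2, and 580 and 399 RPKM in OXCT1mKO 1 and OXCT1mKO 2. Most of the control 2 sum came from S100a8 and S100a9, at 582 and 592 RPKM. Control 2, with the highest sum, also had the highest Arg1 and Arg2. In OXCT1mKO the library with the higher sum had the higher Arg2, at 5.16 against 4.97 RPKM, and the lower Arg1. The sum of 7 epithelial and pancreatic markers was also highest in control 2, at 985 RPKM against 507 to 649 RPKM elsewhere. The part of neutrophil, epithelial, pancreatic or hepatocyte RNA in either arginase gene was not tested. Of 8 neutrophil markers tested, Retnlg fell and the other 7 did not pass by limma, where 16.4% of all genes tested rose and 16.4% fell. The markers did not move together. Csf3r and Cxcr2 were higher in both OXCT1mKO libraries than in either control, and Ly6g, Retnlg and Camp lower. Such a separation was common, with 37.6% of all genes tested above both controls and 37% below both.

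Odc1, on chromosome 12 from 17544794 to 17551505 on the plus strand, makes the step that commits ornithine to polyamines. Expression was 94.3 and 109.7 RPKM in the controls against 78.2 and 79.8 RPKM in OXCT1mKO. Both OXCT1mKO libraries lay below both controls. At a log2 fold change of -0.36 ± 0.11 it narrowly missed the threshold (limma adjusted p 0.0597). It passed without control 1 (-0.47, limma adjusted p 0.0327) and when libraries were scaled to the same median (-0.43, 0.0332).

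Oaz1, its antizyme, lies on chromosome 10 from 80826656 to 80829290 on the plus strand. It was the most abundant of the 10 genes in the group means, at 229.9 and 189.6 RPKM in the controls against 141.9 and 142.2 RPKM in OXCT1mKO. The fall was larger than the spread in either group, at -0.55 ± 0.12 on the log2 scale (limma adjusted p 0.0316). The call was lost when each library was scaled to the same RPKM sum (-0.39, limma adjusted p 0.0569). It was also lost with globin genes left out of that sum (-0.45, limma adjusted p 0.0563) and without the filter on low values (0.0659). The row of its processed copy Oaz1-ps held 1.08 to 1.09 times the Oaz1 value in all 4 libraries, so reads of the copies may have been counted for both and the Oaz1 level is uncertain.

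Srm, on chromosome 4 from 148591503 to 148594993 on the plus strand, had the largest fall of the 10 in the fit of all libraries. It was at 40.6 and 40.0 RPKM in the controls against 21.4 and 23.9 RPKM in OXCT1mKO. The means were 40.3 ± 0.42 and 22.6 ± 1.72 RPKM (SD, n = 2), a difference many times the spread in either group. Srm fell by 0.81 ± 0.09 on the log2 scale (limma adjusted p 0.0127), and the value stayed between -0.88 and -0.73 without each library in turn, with adjusted p of 0.106 and 0.0718 without OXCT1mKO 1 and OXCT1mKO 2.

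Sms, on chromosome X from 157443855 to 157492287 on the minus strand, takes spermidine on to spermine. It was expressed below Srm, at 5.24 and 4.41 RPKM in the controls against 3.07 and 3.25 RPKM in OXCT1mKO. Both OXCT1mKO libraries were below both controls. The log2 fold change was -0.48 ± 0.12 (limma adjusted p 0.0421), and with a pseudocount of 0.1 it was -0.59. This call was near the threshold, and it was lost under scaling to the same RPKM sum (-0.35, limma adjusted p 0.079). It was also lost with globin genes left out of that sum (-0.40, limma adjusted p 0.0702) and without the filter on low values (0.0942). The call was lost without control 1 as well, where the value was -0.38.

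Of the genes that break polyamines down, Sat1 had the higher level. It acetylates spermidine and spermine for export or oxidation, and lies on chromosome X from 155213132 to 155216449 on the minus strand. Expression reached 118.7 and 89.0 RPKM in the controls against 148.3 and 120.01 RPKM in OXCT1mKO. Control 1 and OXCT1mKO 2 were almost level, although the groups did not overlap. Its log2 fold change, 0.37 ± 0.18, missed the threshold (limma adjusted p 0.173). It was 0.17 without control 2, 0.22 without OXCT1mKO 1 and 0.58 without control 1.

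Smox, on chromosome 2 from 131491496 to 131525922 on the plus strand, oxidises spermine back to spermidine. It was at 36.7 and 43.6 RPKM in the controls against 33.4 and 34.3 RPKM in OXCT1mKO. Both OXCT1mKO libraries lay just below control 1. It missed the threshold with a value of -0.23 ± 0.11 on the log2 scale (limma adjusted p 0.165), except without control 1 (-0.36, limma adjusted p 0.0492).

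**Figure D2:**
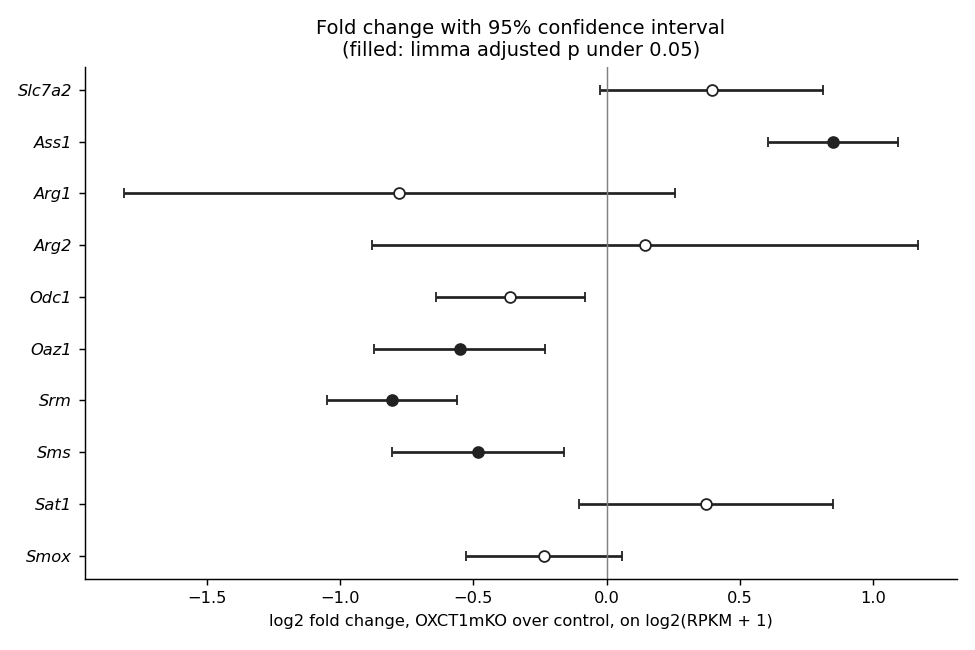
Log2 fold change of OXCT1mKO over control on the log2(RPKM + 1) scale (x axis) for each of the 10 genes, with 95% confidence intervals from limma as bars. Filled points, at 0.85 for Ass1, -0.55 for Oaz1, -0.81 for Srm and -0.48 for Sms, passed an adjusted p of 0.05, and the intervals of Arg1 and Arg2 are the widest.

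Both OXCT1mKO libraries lay above both controls in 3 of the 10 genes (Slc7a2, Ass1 and Sat1) and below both in 5 (Odc1, Oaz1, Srm, Sms and Smox). Over all genes tested 37.6% lay above and 37% below, 74.7% in all, so 8 of 10 is near the background. The scaling of the libraries moved the counts more than the directions. When each library was set to the same RPKM sum, the median of all genes tested was 0.14. Ass1 then rose by 1.01 and Srm fell by 0.64 on the log2 scale, and 1 gene of the 10 was higher and 1 lower. Of the 12523 genes tested, 2878 were higher and 1104 lower under that scaling. None of the 10 changed sign under the 3 scalings tried.

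**Figure D3:**
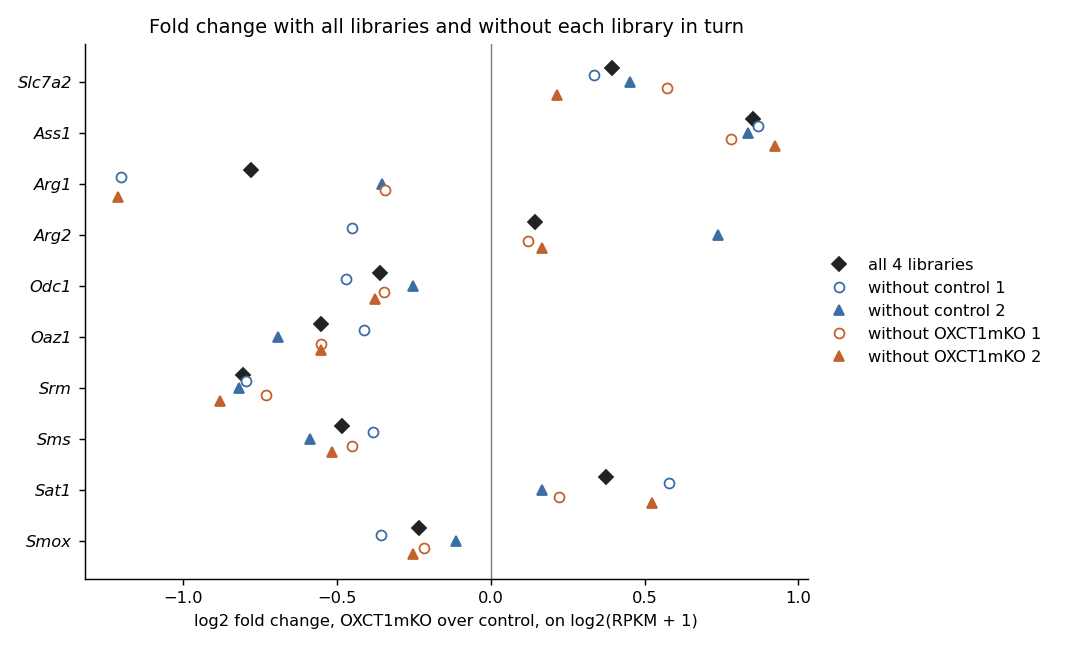
Log2 fold change of each gene (x axis, on the log2(RPKM + 1) scale) with all 4 libraries (diamonds) and without each library in turn (circles and triangles, blue for a control left out and orange for an OXCT1mKO library left out). The points of Srm and Ass1 lie close together, those of Arg1 spread from -1.21 to -0.34, and those of Arg2 fall on both sides of 0.

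The order of the 10 genes by RPKM, a level per length, was alike in the groups at the top. In control it ran Oaz1 (mean 209.7 RPKM), Sat1 (103.8), Odc1 (102.0), Arg1 (45.2), Srm (40.3), Smox (40.2), Ass1 (17.7), Arg2 (4.96), Sms (4.83) and Slc7a2 (2.90). Sat1 and Odc1 did not differ beyond their spread, nor did Arg1, Srm and Smox as neighbours, nor Arg2 and Sms. In OXCT1mKO, Ass1 (32.8 RPKM) lay above Arg1 (26.0) and Srm (22.6), but the ranges of Smox and Ass1, of Ass1 and Arg1, and of Arg1 and Srm overlapped. So did those of Oaz1 and Sat1, at 142.1 and 134.2 RPKM.

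Ratios between genes of the same library do not depend on how libraries are scaled, and 6 were computed. With 2 libraries a group the exact two-sided permutation test cannot give a p below 0.333, or 0.5 after Benjamini-Hochberg adjustment here, so none can pass. Arg1 to Ass1 was 1.79 and 3.34 in the controls and 0.525 and 1.09 in OXCT1mKO, so Arg1 exceeded Ass1 in 3 libraries and not in OXCT1mKO 1. The mean log2 ratio was lower in OXCT1mKO by 1.69 (log2 difference -1.69). Arg1 to Arg2 was 12.2 and 8.00 in the controls and 3.51 and 6.82 in OXCT1mKO. Sat1 to Odc1, a breakdown gene against a synthesis gene, was 1.26 and 0.811 in the controls and 1.90 and 1.50 in OXCT1mKO. Srm to Sms was 7.74 and 9.06 against 6.99 and 7.34. In these 4 of the 6 ratios the groups did not overlap. Among single genes tested the groups were apart in 74.7%, and no such share was computed for ratios. Odc1 to Oaz1 was 0.410 and 0.579 in the controls and 0.551 and 0.561 in OXCT1mKO, which lay between them. Arg1 to Nos2, the nitric oxide synthase that competes for arginine, varied from 11.1 to 87.8 with overlap, and Nos2 was at only 0.664 to 1.63 RPKM.

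The genes around the pathway were taken from 8 lists of 65 genes, 64 of them in the table and 50 tested. Of the 50, 10 rose and 10 fell, where 16.4% of all genes tested rose and 16.4% fell, and the median log2 fold change was 0.01, close to that of all genes tested. With each library scaled to the same RPKM sum, 12 were higher and 7 lower. Under that scaling 2878 of the 12523 genes tested were higher and 1104 lower. Leaving out either OXCT1mKO library left 0 of the 50 called by limma, so each of these 20 calls was lost there. Among genes that transport or use arginine, 2 of 10 rose and 1 fell, near the 32.8% called over all genes. Gatm, which uses arginine for creatine, rose from 54.9 and 48.2 RPKM to 101.9 and 123.6 RPKM (log2 fold change 1.11, limma adjusted p 0.0127). Slc7a7, a subunit of a transporter that exports cationic amino acids, rose from 14.6 and 13.5 RPKM to 21.5 and 19.3 RPKM (0.50, limma adjusted p 0.0251). Ddah1, which breaks down methylated arginine, an inhibitor of nitric oxide synthases, fell from 8.04 and 8.01 RPKM to 6.07 and 5.13 RPKM (-0.46, limma adjusted p 0.04). That last call was lost under several settings, such as without control 1 (limma adjusted p 0.0817) or control 2 (0.0711).

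The supply of S-adenosylmethionine, which feeds Srm and Sms, and the salvage of its by-product formed the list with the most genes lower. Of 11 genes tested 6 fell and 0 rose, with a median of -0.38, whereas 16.4% of all genes tested fell. With Amd1 and its copy Amd2 counted once it was 5 of 10, with a median of -0.29. Amd1, the decarboxylase that makes the aminopropyl donor, fell from 27.9 and 29.0 RPKM to 18.3 and 16.1 RPKM (log2 fold change -0.69, limma adjusted p 0.0142). Its near-identical copy Amd2 held 1.00 times those values in every library, so the reads may be shared. Ahcy, which clears S-adenosylhomocysteine, fell from 44.1 and 39.6 RPKM to 25.4 and 25.7 RPKM (-0.69, limma adjusted p 0.0131). Mtap and Mri1, which recycle methylthioadenosine, the by-product of both synthases, fell by 0.58 and 0.91 on the log2 scale (limma adjusted p 0.0168 and 0.0243). Mri1 lost its call without control 1 (-0.76, limma adjusted p 0.0626). Mat2b, the regulatory subunit of the S-adenosylmethionine synthetase, fell by 0.38 (limma adjusted p 0.0423), a call lost without control 1 (-0.30, limma adjusted p 0.0769) and under equal RPKM sums (-0.22, 0.137).

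Downstream of spermidine, Eif5a, the translation factor that receives hypusine made from it, fell from 298.5 and 263.5 RPKM to 181.6 and 180.4 RPKM (log2 fold change -0.63, limma adjusted p 0.018). Dhps, the first hypusine enzyme, had a value of -0.43 and did not pass (limma adjusted p 0.104), except without control 2 (-0.63, limma adjusted p 0.0298). Among regulators of Odc1, Myc, a transcription factor that acts on Odc1 and Srm, fell from 71.1 and 58.1 RPKM to 44.5 and 43.1 RPKM (-0.54, limma adjusted p 0.0319). The call of Myc was lost under equal RPKM sums (-0.38, limma adjusted p 0.056). Azin1, the inhibitor of antizyme, was at 16.4 and 18.7 RPKM in control and 19.0 and 20.0 RPKM in OXCT1mKO (0.15, limma adjusted p 0.307). Oat, which turns ornithine toward proline and glutamate, was at 59.7 and 59.7 RPKM and at 53.6 and 54.4 RPKM (-0.14, limma adjusted p 0.224). Among 5 genes of polyamine breakdown and transport 1 passed, no more than the background. It was Atp13a2, the lysosomal polyamine exporter, which rose from 8.67 and 7.29 RPKM to 14.8 and 15.5 RPKM (0.85, limma adjusted p 0.013). The sums of T cell markers and of epithelial and pancreatic markers were lower in OXCT1mKO, along with Srm, Ahcy, Eif5a and Myc. In the latter list only the 3 pancreatic enzyme genes passed, and Krt18, Krt8, Epcam and Krt19 did not. The sums of Kupffer cell, monocyte and endothelial markers were higher in OXCT1mKO. The part of any of these cells was not tested.

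**Figure D4:**
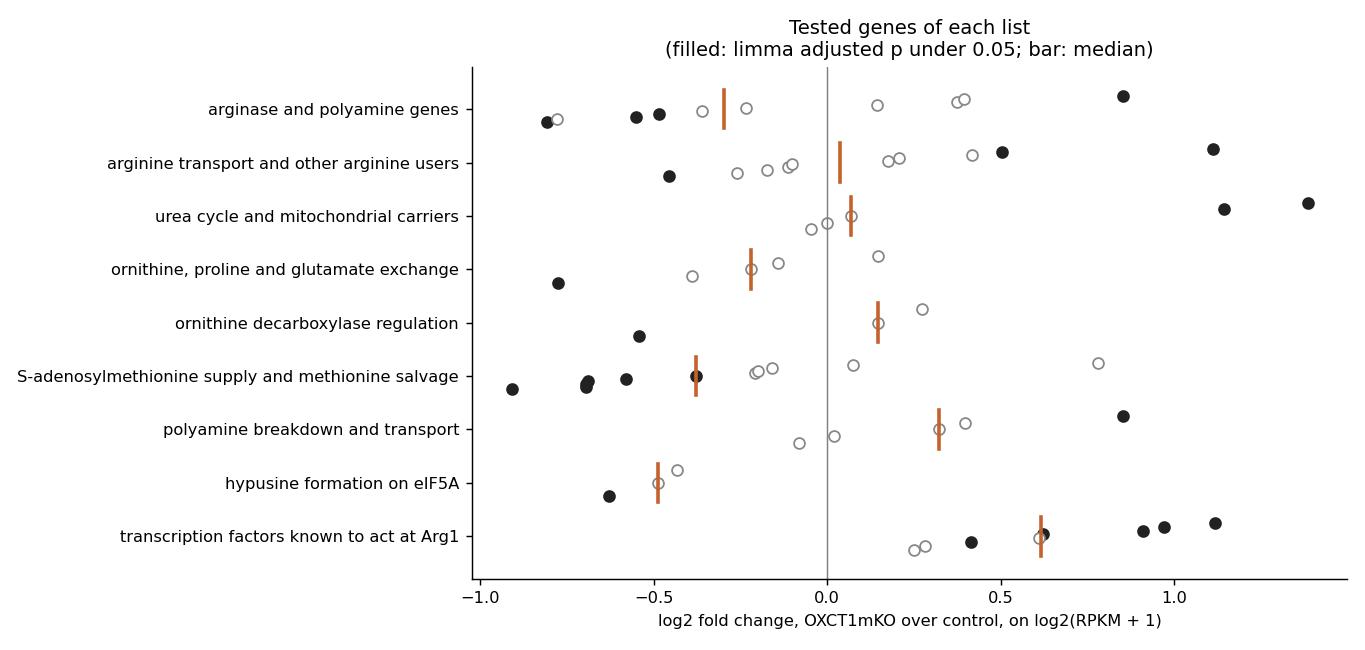
Log2 fold change of OXCT1mKO over control on the log2(RPKM + 1) scale (x axis) for every tested gene of the 10 and of the 8 surrounding lists (rows), filled where the limma adjusted p was under 0.05, with a bar at each median. The list of S-adenosylmethionine supply has its median at -0.38 and 6 filled points, Amd1 and its copy Amd2 among them, all below 0, and that of transcription factors has its median at 0.62 and 5 filled points, all above 0.

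The last list held transcription factors known to act at Arg1, a gene that itself did not pass. Of 8 tested, 5 rose and 0 fell, with a median of 0.62, whereas 16.4% of all genes tested rose. Stat6, the factor downstream of interleukin 4, was at 29.3 and 32.2 RPKM in control and 41.9 and 40.7 RPKM in OXCT1mKO (log2 fold change 0.42, limma adjusted p 0.0303, and 0.051 without control 1). Cebpb, which binds an Arg1 enhancer, was at 98.6 and 127.3 RPKM and at 274.7 and 177.1 RPKM (0.97, limma adjusted p 0.0418). Its call was lost without control 1 (0.79, limma adjusted p 0.121) and without control 2 (1.15, 0.0514). Hif1a rose by 0.62, and the myeloid factors Spi1 and Irf8 by 1.12 and 0.91 (limma adjusted p 0.0155, 0.0232 and 0.0127). Ptprc rose by 1.13 on the same scale, while the sums of T cell markers were lower in OXCT1mKO. Whether the share of leukocytes differed, and its part in these values, was not tested.

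The 5 genes whose pattern over the 4 libraries was most like that of Arg1 were Ccdc68, Tnnt2, Timp1, Emp1 and Cxcl3. Likeness was the root mean square distance between log2 values centred on each gene's mean, among 7887 named genes with a mean of at least 5 RPKM. The distances were 0.13, 0.13, 0.16, 0.16 and 0.16. Emp1, for example, was at 91.8 and 163.8 RPKM in the controls against 68.1 and 98.7 RPKM in OXCT1mKO. With 4 libraries, any such ranking is a description only.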

How the data were processed

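The authors deposited 1 table of RPKM values, with genes in rows and 1 column for each library. The submitters' processing notes name build mm10, STAR 2.10 and R 4.0.5, without their roles. For the counter, strand setting and annotation, none is given in the sources used. A microarray is named in the labels' protocol, but the series type is sequencing. The read depth is unknown: whole reads were not recovered, since among values up to 0.05 RPKM at most 12 genes shared a ratio to control 1 within 0.1%.

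RPKM values are not counts, so limma 3.58.1 (R 4.3.3; intensity trend, two-sided) was fitted to log2(RPKM + 1) with group as the single term, over 12523 genes with a mean of at least 1 RPKM. Fold changes on this scale understate those of low genes. The fit was checked on simulated data. Groups came from sample titles. Gene positions are from GENCODE M21 (GRCm38, also called mm10). RefSeq promoters are of GRCm38.p6. All 10 genes are described; of the surrounding lists, those past the threshold and a fixed set were to be named. Pycr3 had no row under that symbol. A gene that the rule selects is not reported here. The genes, lists and alternatives were chosen with earlier results of these data known. Alternatives were other filters, another pseudocount, 3 scalings, 2 variance models, a replicate block and leaving out each library.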

Additional observations from a re-analysis of the deposited data

How the results depend on the processing

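The count of genes called by limma was 4110 of all tested, 2058 higher and 2052 lower. It was 2340 without the filter on low values, and 1 to 4418 without each library in turn. The split was 2878 higher and 1104 lower with equal RPKM sums, and 2718 and 1479 with globin genes left out of the sums. Of the 10 genes 4 were called, 2 without the filter, 2 with equal RPKM sums and 2 with globin left out, and 0 to 5 without each library. Of the 50 surrounding genes 20 were called, 12 without the filter and 0 to 20 without each library. Values that changed sign were those of Arg2 (-0.45 to 0.74 without each library), Asl (0.154 with equal sums, 0.0919 with globin left out, and -0.173 to 0.170 without each library), Oat (0.0223 with equal sums), Nos2 (-0.146 to 0.496 without each library) and the log2 ratio of Odc1 to Oaz1 (-0.0586 to 0.439 without each library). The cause of these shifts was not tested.

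The replicate numbers of the groups do not pair the samples by any label. The differences between replicates 1 and 2 had a correlation of 0.05 across genes between the groups. With the replicate number as a block, 3606 genes were called, again 4 of the 10. Under this replicate block Arg1 passed at the same value of -0.78 (limma adjusted p 0.0162), because replicate 2 was the higher in both groups, and Sms did not (0.0652). With 2 libraries a group and unknown depth, a value that missed the threshold does not show that levels were equal.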
